A study of Mus musculus with 6 samples.

Results

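Ribosomal protein pseudogenes are copies of the genes that encode the proteins of the cytosolic ribosome. They were taken here from the authors' gene table as the rows annotated as pseudogenes that carry a ribosomal protein symbol followed by -ps and a number (or -ps alone), together with 4 predicted genes listed by name, where the 6 libraries summed to 10 reads or more. Of 45777 rows in the table, 224 matched by name and annotation, and 128 of these held 10 reads or more. A further 36 rows held 1 to 9 reads and 60 held none. Of the 4 predicted genes, Gm12191 was the member. Gm5481 had 6 reads, and Gm6109 and Gm7429 are listed as protein-coding, so these 3 fell outside. At the limit, Rpl17-ps7 and Rpl38-ps1 were inside with 10 reads each, and Rpl21-ps11, Rpl27-ps2 and Rps2-ps4 were outside with 9 each. Members were thus chosen by their total read number, which is given only as a description.

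The libraries came from the striatum of 6-week-old ICR mice, an outbred strain, with 2 female and 1 male offspring listed in each group of 3. In the saline-sired group, the sires had received saline (10 mL/kg) subcutaneously for 21 days from 6 weeks of age, and in the methylphenidate-sired group they had received methylphenidate (15 mg/kg) for the same time. The dams were not treated. How many sires and litters were used was not stated, and the p-values speak only to the spread among these samples. Methylphenidate blocks dopamine and noradrenaline reuptake, and the comparison asked how striatal expression of offspring differed with the sire's treatment. Table columns name the group and a number that cannot be tied to a labelled animal, and each library is named after its column (saline-sired 3, 4 and 5, methylphenidate-sired 2, 4 and 6). Total counts lay between 31360042 and 38844724 per library. Summed over 8 fixed markers, medium spiny neurons (the main striatal cell type) reached 5849, 6355 and 6228 CPM in the saline-sired libraries. CPM are counts relative to the library total after TMM scaling. In the methylphenidate-sired libraries the same markers reached 5488, 5489 and 5028 CPM, all below the saline-sired ones. Choroid plexus, also over 8 markers, was at 2084, 365 and 30.5 CPM with saline sires. With methylphenidate sires it was at 36.6, 85.6 and 55.1 CPM. Cortical excitatory neuron markers (6 genes) summed to 569, 314 and 729 against 895, 947 and 1052 CPM. In whole tissue, fewer cells of a type and less RNA per cell cannot be told apart.

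Most ribosomal protein pseudogenes are processed pseudogenes: a messenger RNA was copied back into DNA by reverse transcription and inserted elsewhere in the genome, so that the copy lacks introns and usually a promoter of its own. Ribosomal protein genes are among the most highly transcribed housekeeping genes and have left many such copies in mammalian genomes. A short read from the parent messenger RNA can match a young copy as well as the parent, and a read count at such a copy is then not evidence that the copy itself is transcribed. Each member is therefore given with its parent, the gene named before -ps, and with the sum of both.

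The Rpl30 family is described first because the only members that passed the test between the groups belong to it. Rpl30 is a protein of the large ribosomal subunit. The copies were compared with the coding sequence of its transcript, 348 nucleotides from the start codon to the stop codon (GENCODE M21, on GRCm38, the assembly of mm10). Gm12191 differed from Rpl30 by 1 base over the 348. Rpl30-ps9 had 2 substitutions, and its annotated sequence was 3 bases shorter. Rpl30-ps10 had 3 substitutions and was 1 base shorter, Rpl30-ps1 had 3 substitutions, and Rpl30-ps8 had 3 and was 3 bases shorter. All 5 Rpl30 members shared 1 substitution, at the third position of its codon, which was also the single difference of Gm12191.

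Gm12191 (Gene ID 666899) is on chromosome 11, from 49678620 to 49679143, in an intron of Cnot6 and on the same strand. Its reads numbered 564, 424 and 333 in the saline-sired group (libraries 3, 4 and 5) and 86, 61 and 72 in the methylphenidate-sired group (libraries 2, 4 and 6). All saline-sired libraries lay above all methylphenidate-sired ones. Its level fell from 12.7 ± 1.83 to 2.22 ± 0.363 CPM (SD, n = 3 per group), or by 2.52 on the log2 scale (SE 0.18, edgeR adjusted p = 0.00356). Cnot6, a subunit of the CCR4-NOT deadenylase that holds Gm12191 in its intron, was at 77.0 ± 2.22 and 73.5 ± 3.31 CPM (log2 fold change -0.07, SE 0.06, edgeR adjusted p = 0.779).

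Rpl30-ps9 (Gene ID 622202) is on chromosome X, from 105278583 to 105279053, with no other gene of the annotation at that place. Saline-sired libraries had 179, 143 and 100 of its reads and methylphenidate-sired ones 4, 3 and 2. The level was 4.07 ± 0.745 CPM in the first group and 0.0916 ± 0.0314 in the second (log2 fold change -5.42, SE 0.34, edgeR adjusted p = 0.00287). Rpl30-ps10 (Gene ID 100504405), also on chromosome X, from 71803615 to 71804080, had 147, 123 and 87 reads against 7, 1 and 5. Its level fell from 3.45 ± 0.578 to 0.131 ± 0.0921 CPM (log2 fold change -4.68, SE 0.45, edgeR adjusted p = 0.0266). Both rows entered the test through their saline-sired counts. With counts as low in both groups as in the methylphenidate-sired one, they would not have been tested. With every gene of 10 or more reads tested, where 0.00900% of genes passed, the edgeR adjusted p was 0.00528 for Rpl30-ps9, 0.00934 for Gm12191 and 0.0533 for Rpl30-ps10. With 1 library left out, Rpl30-ps9 passed in every case. Gm12191 missed the threshold when methylphenidate-sired library 6 was omitted (edgeR adjusted p = 0.0735). Rpl30-ps10 passed with methylphenidate-sired library 4 omitted (edgeR adjusted p = 0.0352) and missed it for the other 5 (0.0564 to 0.355).

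The remaining Rpl30 copies held few reads. Rpl30-ps1 had 9, 15 and 12 reads in the saline-sired libraries and 1, 0 and 1 in the methylphenidate-sired ones, below the filter of the test. Rpl30-ps8 had 6, 7 and 6 against 3, 3 and 6, where the groups met at 6. Among the rows outside the rule, Gm7429, which also has the shared substitution, had 8, 10 and 5 reads against 1, 1 and 0. Gm5481, which has it too, had 3, 2 and 0 against 0, 0 and 1, and the groups overlapped. Gm6109, which does not have it, had 2, 2 and 4 against 4, 4 and 2. Whether the shared base bears on these counts was not tested. Apart from the predicted genes, these rows were picked out after their values were seen.

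Rpl30 itself had its higher values in the methylphenidate-sired group. Its reads came to 2717, 2124 and 1678 with saline sires and 2562, 2316 and 2571 with methylphenidate sires, or 68.4, 66.7 and 53.8 against 78.0, 72.5 and 76.1 CPM. The groups did not overlap in CPM, and the log2 fold change of 0.26 (SE 0.09) did not pass the test (edgeR adjusted p = 0.485). Summed with its 5 members, the Rpl30 family was at 91.2, 89.0 and 71.1 CPM with saline sires and at 81.1, 74.6 and 78.6 CPM with methylphenidate sires. These sums overlapped between the groups (log2 fold change -0.10, SE 0.10, edgeR adjusted p = 0.788). Of the family's reads, the members took 25.0%, 25.1% and 24.3% with saline sires and 3.79%, 2.85% and 3.24% with methylphenidate sires. The mean share was 24.8% ± 0.447 and 3.29% ± 0.473 (SD, n = 3), a difference of -21.5 percentage points. The exact two-sided permutation p was 0.1, the smallest that 3 against 3 libraries can give. The family was picked because members of it had passed the test on these same reads, so this p is only a description. Cortical markers were also separate between the groups, at 314 to 729 CPM with saline sires and 895 to 1052 CPM with methylphenidate sires. Medium spiny neuron markers were separate the other way, at 5849 to 6355 against 5028 to 5489 CPM, while the choroid plexus markers overlapped. The part of tissue composition in these differences was not tested.

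**Figure D1:**
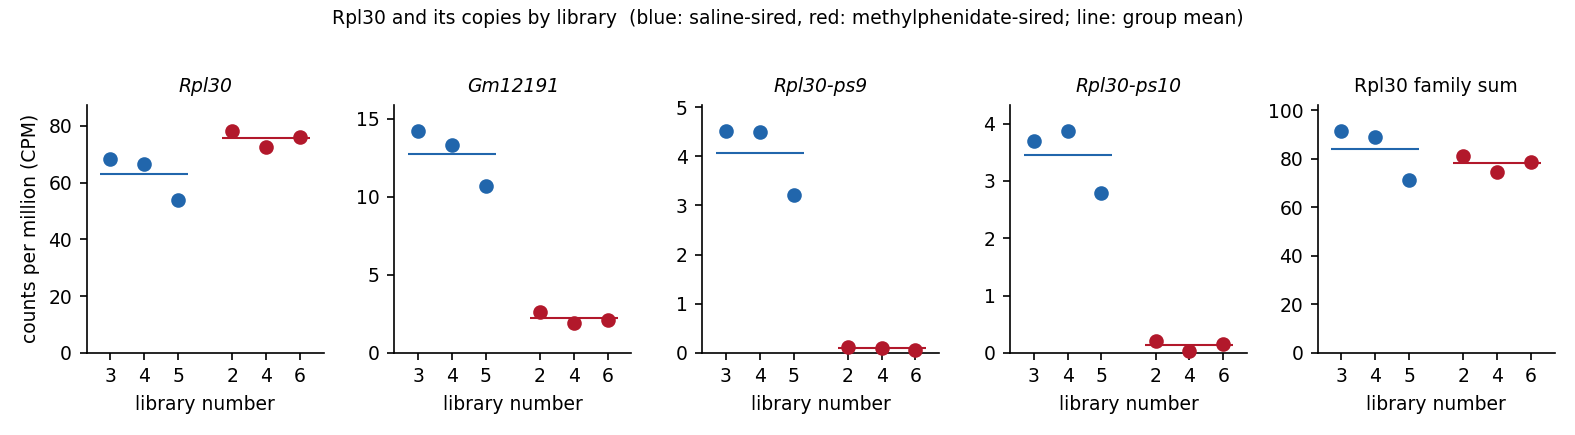
Level in CPM (vertical axis, from 0, scaled for each panel) of Rpl30, 3 of its pseudogenes and the sum of Rpl30 with its 5 members, for each library (points) with the group mean (line). The pseudogenes separate the groups, Gm12191 at 12.7 against 2.22 CPM on average, while the family sums overlap.

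Of the 128 members, 77 passed the filter on low counts and were tested, and 3 of them, all copies of Rpl30, fell in the methylphenidate-sired group (edgeR, Benjamini-Hochberg adjusted over 17874 genes, threshold 0.05). The share of all genes called lower was 0.0224%. No member was called higher; 6 of the 77 had an unadjusted p under 0.05 in either direction, against 9.02% of all genes. With DESeq2, which called 1.43% of the genes it gave an adjusted p, 1 member passed (Gm12191), and 52 of the 77 had no adjusted p, Rpl30-ps9 and Rpl30-ps10 among them. The 51 members below the filter had 10 to 60 reads in all and at most 15 in a single library. Of the 77, 41 had a fold change below 0, as had 53.0% of all genes, and the median was -0.04, against -0.01 over all genes. Leaving out saline-sired library 5 or methylphenidate-sired library 2 turned that median to 0.02. The groups did not overlap in 11 of 77 members, or 14.3%, against 14.8% of all genes tested: 7 lay lower (7.01% of all genes) and 4 higher (7.84%). Outside the Rpl30 family this held for 8 of 74. In the same fit 57 of the 77 had a log2 fold change within 0.3 of 0, as had 14256 of all 17874 genes.

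**Figure D2:**
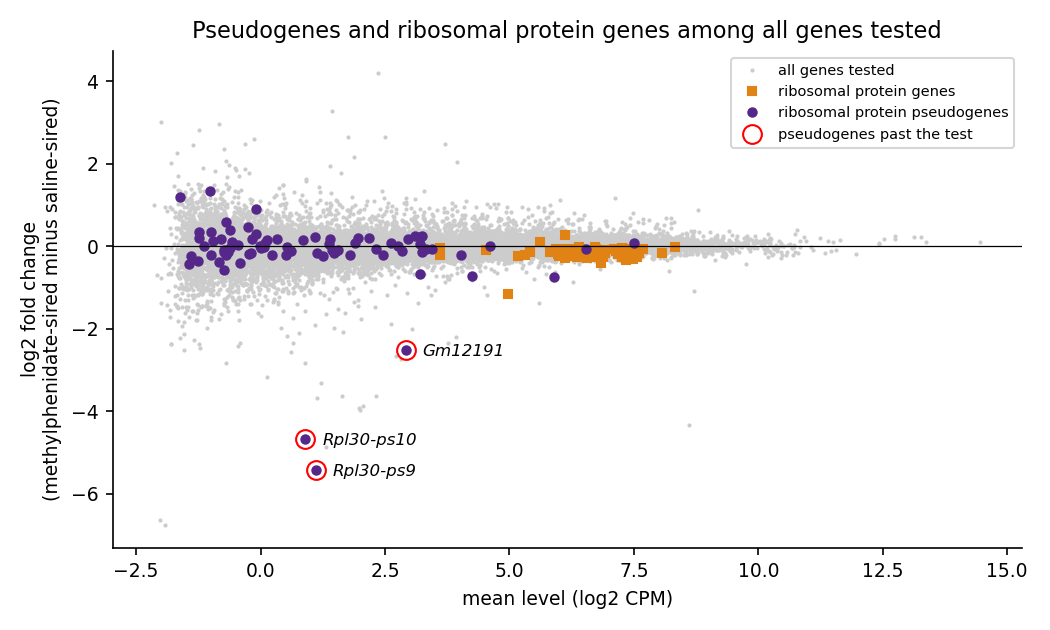
Log2 fold change (methylphenidate-sired minus saline-sired) against mean level in log2 CPM for all 17874 genes tested (grey), the 79 ribosomal protein genes (orange) and the 77 tested pseudogenes (purple). The 3 circled Rpl30 copies, at -2.52 to -5.42, lie away from the other pseudogenes.

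The reads of the members were unevenly spread. They summed to 118602 reads over the 6 libraries, between 0.0474% and 0.0697% of a library's counts, and the median member had 106.5 reads. Rps2-ps13 alone held 29.8% of them, the first 3 members (Rps2-ps13, Rpl3-ps1 and Rps2-ps10) 55.9%, and the first 10 72.7%. There were 62 members under 100 reads, 46 from 100 up to 1000 and 20 with 1000 or more. Copies of large-subunit genes made up 70 members and copies of small-subunit genes 58, from 48 parent genes, and 19 were on chromosome X. By the annotation, 82 lay outside other genes, 41 in an intron of another gene (16 on its strand, 23 on the other, 2 with no strand given) and 5 overlapped an exon of one. Strand use in the authors' counting was not stated, so counts of the last 5 may include reads of the overlapping gene.

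A GENCODE transcript annotated as a pseudogene was found for 120 of 128 members, and 119 of them matched a ribosomal protein transcript. Members without such a transcript, Rps18-ps5 among them, were not compared. Of the 119 with a sequence and a parent in their name, 117 matched that parent best. Rpl13-ps1 had no match. Identity to the best match ran from 89.3% to 100%, with a median of 98.8%, and 9 members matched without a difference. Members with 1000 or more reads had a median identity of 99.7% (n = 18), those under 100 reads 98.0% (n = 59), and the rows under the read limit 92.1%. These are descriptions over copies that share parents, and the read limit chose the members. Per kilobase of sequence, the median member stood at 0.619% of its parent's level, 74 of 126 stood under 1% and 20 at 10% or more. Member lengths were those of RefSeq, and a parent's length was that of 1 whole GENCODE transcript, its most frequent best match. A longer parent transcript gives a higher percentage, so these values depend on that choice.

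**Figure D3:**
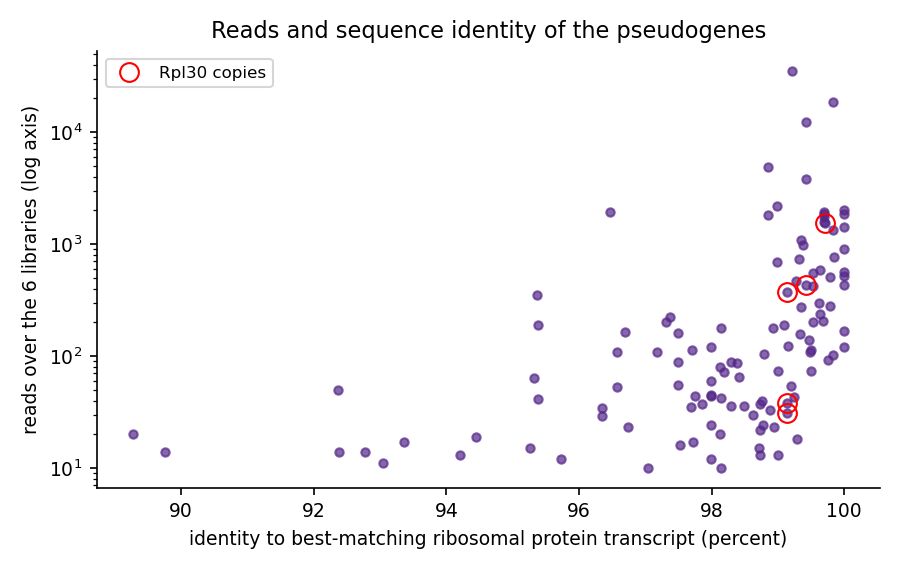
Reads over the 6 libraries (vertical log axis) against identity to the best-matching ribosomal protein transcript in percent, 1 point for each of 119 pseudogenes, with the Rpl30 copies circled. The members of 1000 or more reads had a median identity of 99.7%, those under 100 reads 98.0%.

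Of the large-subunit families, that of Rpl35a had the widest range of shares between libraries. Rpl35a was also the parent with the lowest p between the groups. Its members Rpl35a-ps2, Rpl35a-ps3, Rpl35a-ps4 and Rpl35a-ps6 are the same letters over the 333 nucleotides compared, and they differ from the parent's coding sequence by G156A, where the parent's base comes first and positions count from 1 at the A of the start codon. This base is at the third position of its codon. Rpl35a-ps5 has G156A with A171G and C234T. Positions 1 to 180 of the parent and of 1 of the 4 identical copies are shown, because this base is the only difference within the coding stretch, 5′ to 3′ from GENCODE M21 with the differing base in capitals.
Rpl35a: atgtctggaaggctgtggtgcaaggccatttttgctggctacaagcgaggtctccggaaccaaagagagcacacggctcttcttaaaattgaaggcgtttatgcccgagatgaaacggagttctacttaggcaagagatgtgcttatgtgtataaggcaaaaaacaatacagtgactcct
Rpl35a-ps3: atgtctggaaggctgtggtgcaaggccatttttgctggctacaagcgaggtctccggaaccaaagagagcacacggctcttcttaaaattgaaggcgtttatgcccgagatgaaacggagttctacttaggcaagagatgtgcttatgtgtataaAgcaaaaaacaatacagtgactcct

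Rpl35a-ps3, the member of this family with the most reads, had 509, 220 and 185 reads with saline sires and 329, 322 and 346 with methylphenidate sires. Saline-sired libraries 4 and 5 were the lowest and saline-sired library 3 the highest, and the groups overlapped (8.55 ± 3.72 and 10.1 ± 0.114 CPM, log2 fold change 0.24, SE 0.26, edgeR adjusted p = 0.823). Rpl35a had 1115, 1741 and 1499 reads against 599, 612 and 701, highest in the libraries where the copies were lowest. Its level was 43.6 ± 13.9 and 19.4 ± 1.27 CPM (log2 fold change -1.17, SE 0.22, edgeR adjusted p = 0.343; DESeq2 adjusted p = 1.39e-05). Without saline-sired library 3 it passed the edgeR test (log2 fold change -1.41, adjusted p = 0.0208). The 5 members held 63.0%, 32.5% and 33.8% of the family's reads in the saline-sired libraries and 67.4%, 66.6% and 65.2% in the methylphenidate-sired ones, so that saline-sired library 3 lay near the other group. The family sum was 75.9, 81.0 and 72.6 CPM against 56.0, 57.4 and 59.6, with no overlap (log2 fold change -0.41, SE 0.07, edgeR adjusted p = 0.369; DESeq2 adjusted p = 0.000888). The fold change of the sum was smaller than that of the parent alone.

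Among copies of small-subunit genes, those of Rps2, a protein near the entry of the messenger RNA channel, held the most reads. Rps2-ps13 (Gene ID 546298, chromosome X, 52898559 to 52899511) had 1464, 8613 and 6847 reads with saline sires and 3834, 7152 and 7375 with methylphenidate sires. It was lowest in saline-sired library 3 and next lowest in methylphenidate-sired library 2, and the groups overlapped (176 ± 123 and 186 ± 60.3 CPM, log2 fold change 0.09, SE 0.59, edgeR adjusted p = 0.981). Without saline-sired library 3 the log2 fold change was -0.40. Rps2 itself was at 157, 68.0 and 74.9 CPM against 121, 73.0 and 64.1, highest in the same 2 libraries in which Rps2-ps13 was lowest. Per kilobase Rps2-ps13 was at 224% of its parent, and it was the only member above its parent on that scale.

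Rps2-ps10, in an intron of Pde6a, had 4567, 1748 and 1637 reads against 1072, 1598 and 1669. Saline-sired library 3 stood highest, and in CPM the groups did not overlap (74.1 ± 35.4 and 44.0 ± 9.86, log2 fold change -0.75, SE 0.30, edgeR adjusted p = 0.514). Rps2-ps8 and Rps2-ps6 spanned 8.28 to 11.9 and 8.04 to 11.3 CPM over the 6 libraries. Summed with all 6 members, the Rps2 family was at 331, 414 and 369 CPM against 287, 369 and 353, a narrower range than that of Rps2-ps13 (log2 fold change -0.14, SE 0.11, edgeR adjusted p = 0.736). The share of family reads at members was 52.7%, 83.6% and 79.7% with saline sires and 57.9%, 80.2% and 81.9% with methylphenidate sires.

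Rps26-ps1 (Gene ID 100042812, chromosome 8, 107439150 to 107439585) is on the other strand of an intron of Wwp2 and differs from Rps26, a small-subunit protein, by C32T and G272A, counted from the first base of the matched stretch of 351. It had 1026, 787 and 617 reads with saline sires and 302, 725 and 376 with methylphenidate sires. Methylphenidate-sired libraries 2 and 6 were low, and library 4 lay among the saline-sired ones. The level was 23.4 ± 3.21 and 14.3 ± 7.30 CPM (log2 fold change -0.71, SE 0.30, edgeR adjusted p = 0.536). Rps26 was at 49.1, 46.3 and 47.4 CPM against 51.5, 48.6 and 52.4, highest in the 2 libraries with the least Rps26-ps1. The family sum differed by -0.12 on the log2 scale (SE 0.08, edgeR adjusted p = 0.675).

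Rps19-ps6 (Gene ID 100503302), on chromosome 12 from 110898079 to 110898588 within a Tecpr2 intron and on that gene's strand, varied between libraries of both groups. Its reads were 271, 459 and 397 against 486, 202 and 9, and methylphenidate-sired library 6 had the fewest. It differs from the coding sequence of Rps19 by C6T, T273C, G369A, G372A and C390T over 438 nucleotides. Rps19 was at 81.1, 67.9 and 57.0 CPM with saline sires and 54.1, 70.2 and 73.8 with methylphenidate sires, and the family sum at 89.9, 84.2 and 72.1 against 71.1, 78.8 and 76.6. Rpl14-ps1 had 96 reads in methylphenidate-sired library 6 and 8 to 28 in the other 5. Rpl17-ps4 had 29 reads in each of methylphenidate-sired libraries 4 and 6 and 4 to 13 elsewhere. These 3 members were picked out after their values were seen, for the gap between libraries. Over the 77 tested members the highest library was more than 3-fold above the lowest in 10, or 13.0%, against 10.8% of all genes tested and 16.0% of the 956 other pseudogenes tested.

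**Figure D4:**
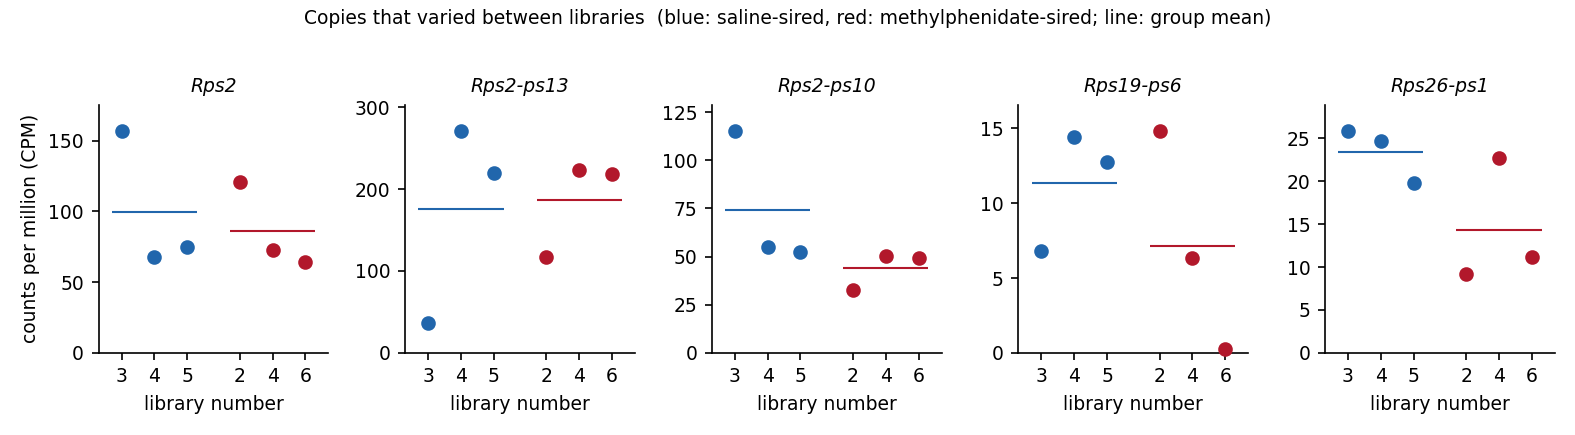
Level in CPM (vertical axis, from 0, scaled for each panel) of Rps2, 2 of its pseudogenes, Rps19-ps6 and Rps26-ps1 for each library (points) with the group mean (line). Saline-sired library 3 is lowest for Rps2-ps13 and highest for Rps2, and methylphenidate-sired library 6 has 9 reads of Rps19-ps6.

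The other abundant members varied less between libraries. Rpl3-ps1, a copy of the gene of a large-subunit protein near the peptidyl transferase centre, had 3853, 3171 and 2768 reads against 2903, 2945 and 3028 (97.0, 99.6 and 88.8 against 88.4, 92.2 and 89.6 CPM, log2 fold change -0.08, SE 0.06, edgeR adjusted p = 0.741). Rpl3-ps2 was at 24.1 ± 0.654 and 24.3 ± 0.939 CPM and Rpl15-ps3, which matches Rpl15 without a difference over 615 nucleotides, at 10.3 ± 0.378 and 9.73 ± 0.381 CPM. The Rpl3 members held 36.3% ± 1.30 of the family's reads with saline sires and 36.4% ± 0.238 with methylphenidate sires. Rps18-ps5, which overlaps an exon of Gm11361, was at 17.6 ± 1.53 and 15.1 ± 1.36 CPM (log2 fold change -0.23, SE 0.11, edgeR adjusted p = 0.589).

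Apart from the Rpl30 copies and Rps2-ps10, 7 tested members had groups that did not overlap, and none of them passed the test. Among those with higher values in the methylphenidate-sired group, Rpl36-ps12 went from 9, 3 and 5 to 13, 12 and 12 reads, a log2 fold change of 1.18 (SE 0.49), Rpl29-ps2 had 0.59 (SE 0.36), Rps23-ps2 0.22 (SE 0.20) and Rpl10-ps6 0.21 (SE 0.17). Among those with lower values, Rps2-ps5 had -0.43 (SE 0.43), Rpl31-ps9 -0.40 (SE 0.34) and Rpl10-ps5 -0.16 (SE 0.18). The smallest adjusted p of these 7 was 0.519 (edgeR). Some copies are the same over their GENCODE sequence, which is shorter than the stretch counted, and the rest was not compared. Rps12-ps11 to Rps12-ps15 are the same letters over 399 nucleotides and had between 12 reads in all (Rps12-ps12) and 60 (Rps12-ps13). In all, 12 members fell into 3 such sets.

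The parents were set beside the full list of 79 cytosolic ribosomal protein genes, all of which were tested. None passed the edgeR test, 21 had an unadjusted p under 0.05 (9.02% of all genes did), and DESeq2 called 1, Rpl35a. Of the 79, 77 had negative fold changes (53.0% of all genes did), and the median was -0.16 (-0.01 over all genes). The 2 positive ones were Rpl30 (0.26) and Rps26 (0.09). Rpl17 (-0.26, SE 0.08) and Rpl39 (-0.23, SE 0.08), both of the large subunit and parents of members, did not pass either (edgeR adjusted p = 0.470 each). The list took 1.04%, 0.978% and 0.835% of counts with saline sires and 0.823%, 0.846% and 0.846% with methylphenidate sires. Without saline-sired library 3, which had the highest share and the highest choroid plexus markers, the median was -0.10. Without methylphenidate-sired library 2, where those markers summed to 36.6 CPM, it was -0.12. In each of these fits 70 of the 79 were negative. Leaving out any other library gave medians from -0.22 to -0.14, with 76 or 77 negative. The part of choroid plexus in the result was not tested.

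Over the 48 families of a parent with its members, no sum passed the edgeR test (0.00% of the 17797 rows of that table did). An unadjusted edgeR p under 0.05 was found for 10 of the 48 families, against 9.02% of all genes before summing. DESeq2 called 1 family, Rpl35a. The sums were lower in 47 of 48, with a median of -0.14, as were 46 of 48 parents alone, also with a median of -0.14. Before summing, 53.0% of all genes were lower. The families of Rpl30 (-0.10) and Rps26 (-0.12) were among those lower as sums, while both parents alone were higher. Pseudogenes held a median of 2.15% of family reads, under 1% in 18 families, and most in the families of Rps2 (73.0%), Rpl35a (53.7%), Rps18 (48.4%) and Rpl3 (36.2%). The share moved by more than 5 percentage points between libraries in 6 families, those of Rpl35a, Rps2, Rpl30, Rps19, Rps26 and Rps18. The groups did not overlap in the share of 9 of the 48 families. Shares have no counterpart over all genes, and in level the groups did not overlap in 14.8% of all genes tested. Among the 9 families, the mean share differed by -21.5 points in the Rpl30 family and 23.3 in that of Rpl35a. In the other 7 families it differed by at most 2.52 points, that of Rpl29.

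**Figure D5:**
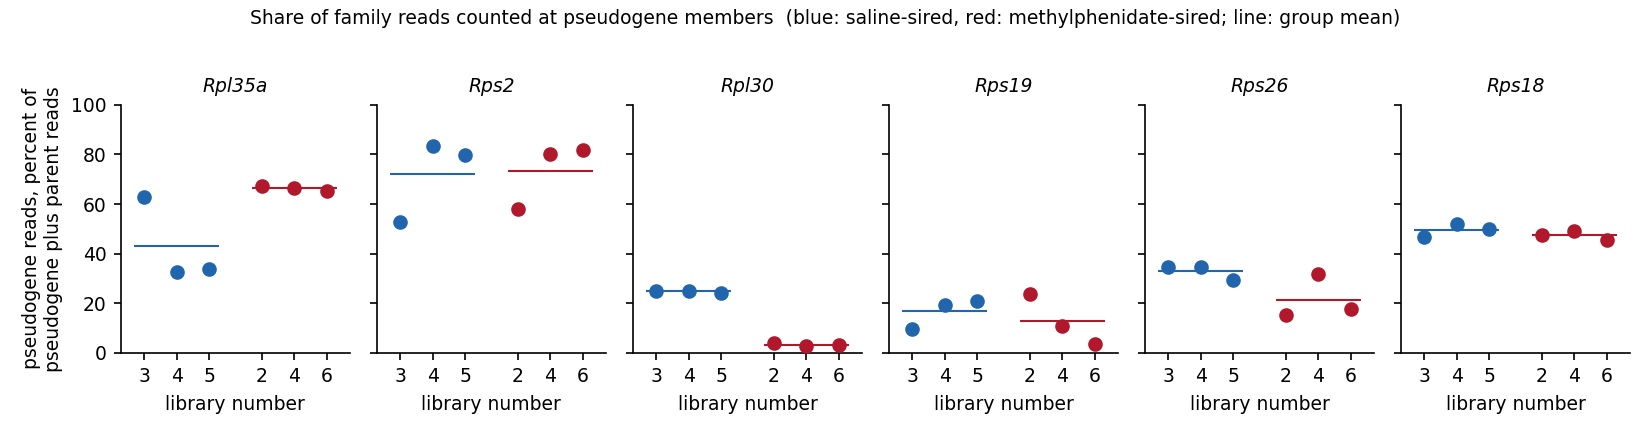
Reads counted at pseudogene members as a percentage of pseudogene plus parent reads (vertical axis, 0 to 100) in the 6 families whose share moved by more than 5 points, for each library (points) with the group mean (line). Rpl30 copies separate the groups at 24.8% and 3.29%, while in the Rps2 family saline-sired library 3 and methylphenidate-sired library 2 lie below the others.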

How the data were processed

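Striatal RNA libraries of 3 saline-sired and 3 methylphenidate-sired offspring were analysed. Per the submitters' processing notes, the reads went through bcl2fastq 2.20.0, Trimmomatic, HISAT2 2.1.0 and StringTie 2.1.3b with build mm10. Whether multi-mapping reads were split, assigned or dropped was not stated, and this bears on every count at a copy. The authors' deposited table gives whole-number read counts per RefSeq gene, used as deposited. The other 12 columns (FPKM and TPM) were not used. Columns were tied to groups only, so sex was no covariate.

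Counts were tested with edgeR 4.0.16 (R 4.3.3; TMM, filterByExpr, quasi-likelihood F test) over 17874 genes, with Benjamini-Hochberg adjustment and a threshold of 0.05. CPM uses TMM-scaled library sizes, SE was derived from the fold change and F, and family sums replaced each parent by the parent plus its members. DESeq2 1.42.0 was an alternative. The test was tried on simulated data. Coordinates are from the RefSeq table of GRCm38.p6 and overlaps from GENCODE M21. Copies were compared by blastn 2.17.0 (expectation limit 1e-20).

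The members and lists were chosen with earlier results of these data known. Named are members past the test, the 10 with the most reads, up to 8 per direction of largest change without overlap, Gm12191, parents, and the 3 other ribosomal protein genes of lowest p. Some items are not reported here.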

Additional observations from a re-analysis of the deposited data

How the results depend on the processing

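With DESeq2 size factors the number of members past the test stayed at 3. The DESeq2 Wald test gave 1 member, 1 parent, 1 family sum and 183 genes in all, against 3, 0, 0 and 4 with edgeR. With 10 or more reads in place of the filter, 2 members and 2 genes in all passed. Without each library in turn, 1 to 3 members passed, 0 or 1 parent, 0 family sums and 1 to 4 genes, with 1 member and 1 gene left without methylphenidate-sired library 6. The difference in the Rpl30 family share lay between -21.8 and -21.3 percentage points without each library, at -10.9 without Gm12191, at -23.6 from counts per kilobase and at -21.7 with all copies in the table, an alternative chosen after seeing the data. Of 315 alternative values of 35 named genes, 298 kept direction and side of the threshold (judged on direction and size alone where DESeq2 gave no adjusted p, as for Rpl30-ps9 and Rpl30-ps10), 7 no longer passed, 2 newly passed and 8 changed sign, none of the 8 past the test. Over the fits that omit 1 library, Rps2-ps13 ran from -0.40 to 0.54 (-0.40, -0.054 and -0.042 without saline-sired 3, methylphenidate-sired 4 and methylphenidate-sired 6), Rps2 from -0.53 to 0.26 and Rpl29 from -0.087 to 0.067 (both positive without saline-sired 3), Rpl3-ps2 from -0.0079 to 0.049 (-0.0079 and -0.0072 without library 4 of either group), and Rps2-ps8 from -0.15 to 0.094 (positive without methylphenidate-sired 2). The cause was not tested. No paired analysis was possible because the table's columns do not carry the replicate numbers of the labels, and the groups share only the column number 4. At these depths, members with few reads could show only large differences.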
